A study of Mus musculus with 6 samples.

Results

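The genes described here direct haematopoietic progenitors towards granulocytes, monocytes and macrophages. They are the transcription factor genes Spi1, Cebpa, Cebpd, Cebpe, Gfi1, Irf8 and Klf4, and the colony-stimulating factor (CSF) receptor genes Csf3r, Csf2ra and Csf2rb. These 10 genes were taken by symbol, and all were among the 23951 genes of the read count table. RNA sequencing had been done on haematopoietic stem cells (HSCs) from the fetal liver of C57BL/6 mice, with 3 wild type (WT) libraries and 3 libraries with a knockout (KO) of Uqcrfs1, which encodes RISP, the Rieske subunit of complex III in the respiratory chain. The labels name neither the embryos' age, nor a Cre line or other allele, nor a sorting gate, nor the embryo behind each library. P-values therefore reflect variation among the libraries alone, part of which may be technical. Values by library are given in the order of replicates 1, 2 and 3.

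In the bone marrow and fetal liver, Spi1 (PU.1) and C/EBP alpha open the myeloid programme in uncommitted progenitors. Irf8 and Klf4 then favour the monocyte and dendritic cell fates, while Gfi1 represses monocyte genes and favours neutrophils, and C/EBP epsilon acts late in neutrophil maturation. The receptors for G-CSF (Csf3r) and GM-CSF (Csf2ra with the shared beta chain Csf2rb) carry the matching growth signals, and their genes are known targets of PU.1 and C/EBP factors.

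Of the 10 genes, 2 differed between the groups at a Benjamini-Hochberg adjusted p under 0.05 in edgeR's quasi-likelihood test over 12204 genes. Irf8 was lower in KO and Gfi1 was higher. By the same test 11.4% of all genes tested differed, 6.41% higher and 4.99% lower in KO, and with only 10 genes a count of 2 says little against that background. Spi1, Cebpd, Cebpe, Csf2ra and Csf2rb gave unadjusted p-values over 0.05, and Cebpa, Klf4 and Csf3r lay in between, with unadjusted p-values of 0.0177, 0.0312 and 0.0255 that did not pass after adjustment. An unadjusted p under 0.05 was found for 5 of the 10 genes and for 25% of all genes tested. Of the 10, Irf8 and Gfi1 had groups that did not overlap, as did 30.2% of all genes tested.

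The libraries were checked before the genes were read. The WT libraries held 10191354 to 13189329 counts each and the KO libraries 12020128 to 14590844. Uqcrfs1 had 771 to 1320 counts in WT and 39 to 60 in KO. All 14 stem cell markers on the list had counts in all 6 libraries, with a summed level of 2734 to 3147 CPM (counts relative to the scaled library total) in WT and 2395 to 2508 CPM in KO. By the edgeR test 5 of the 14 were lower in KO and 1 was higher (42.9%, against 11.4% of all genes tested). WT replicate 3 stood apart by 18 macrophage markers, at 1379 CPM against 225 and 117 CPM in WT replicates 1 and 2 and 64.0 to 117 CPM in KO. The 11 granulocyte markers summed to 336, 282 and 88.2 CPM in the WT libraries and to 59.9 to 77.8 CPM in KO. Erythroid markers summed to 219 to 451 CPM in the WT libraries and 50.1 to 75.004 CPM in KO. Of the 7 tested, Alas2, Klf1 and Slc4a1 were lower in KO, and Epor alone had a positive log2 fold change. The 12 mast cell and basophil markers summed to 199.95 to 217 CPM in the WT libraries and 228 to 325 CPM in KO, mostly Gata2, which HSCs also express. Of the 6 tested, 1 was higher, the basophil protease gene Prss34 (log2 fold change 4.45, edgeR adjusted p = 0.00334), Cma1, Mcpt4 and Tpsb2 had counts only in KO replicates 2 and 3, and Fcer1a and Tpsab1 were at 0 in every library. The lymphoid markers Dntt and Cd3e were at 0 in every library too. The part of these cell types in the results below was not tested. The libraries also differed in sex-linked RNA: KO replicate 2 had 0 Xist counts and 2358 counts over 4 Y-linked genes, and KO replicate 1 had 13480 and 0. WT replicate 1 had 13062 and 13. Both kinds were present in WT replicate 2 (5842 and 836), WT replicate 3 (8988 and 1022) and KO replicate 3 (16004 and 604). In bulk RNA, fewer cells of a type and less RNA per cell cannot be told apart.

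The start regions of the pair that passed are shown because Gfi1 and Irf8 are the members that moved, in opposite directions. RefSeq windows on GRCm38.p6 from 250 bases before to 50 bases after an annotated start were matched for 6 of the 10 genes (Cebpa, Gfi1, Irf8, Klf4, Csf3r and Csf2ra), and not for Spi1, Cebpd, Cebpe and Csf2rb. Capitals mark matches, on either strand, to 6 motifs: TTCNNNGAA (a STAT or GAS site), GAGGAAGT (PU.1), TTGCNNAA (C/EBP), TGATGNAA (a C/EBP-ATF composite site), AAATCA (GFI1) and an IRF motif given by name only. Each sequence runs 5′ to 3′ on the gene's strand, the upper one at chr8:120736108-120736407 on the plus strand and the lower one at chr5:107725756-107726055 on the minus strand.
Irf8 window: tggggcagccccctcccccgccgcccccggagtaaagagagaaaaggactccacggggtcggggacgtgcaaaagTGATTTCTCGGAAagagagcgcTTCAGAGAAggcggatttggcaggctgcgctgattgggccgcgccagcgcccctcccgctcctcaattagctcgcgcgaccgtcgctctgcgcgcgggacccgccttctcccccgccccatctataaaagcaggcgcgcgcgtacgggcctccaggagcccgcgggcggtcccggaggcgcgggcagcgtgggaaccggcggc
Gfi1 window: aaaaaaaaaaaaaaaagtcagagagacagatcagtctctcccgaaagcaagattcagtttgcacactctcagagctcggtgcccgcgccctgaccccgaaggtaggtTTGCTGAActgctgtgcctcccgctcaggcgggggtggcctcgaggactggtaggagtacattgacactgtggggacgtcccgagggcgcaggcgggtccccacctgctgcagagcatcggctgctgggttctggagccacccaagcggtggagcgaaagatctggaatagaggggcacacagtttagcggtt

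The Irf8 window held 2 GAS matches, starting at -171 and -153 from the annotated start, and a GFI1 match on the other strand at -175 that overlaps the upstream GAS match. A second annotated Irf8 start had 1 GFI1 match, at -226. The Gfi1 window held 1 C/EBP match at -143, and the second Gfi1 window held none of the 6 motifs. No match was found in the Cebpa, Klf4, Csf3r and Csf2ra windows. Among all 32851 RefSeq windows of this length, 8.3% held the GAS motif, 14% the GFI1 motif, 10.8% the C/EBP motif, 3.2% the PU.1 motif, 3.97% the composite motif and 3.44% the IRF motif. A match describes letters in this window only.

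Irf8, the interferon regulatory factor that monocyte and dendritic cell progenitors depend on, had 50.1, 54.9 and 34.1 CPM in the WT libraries and 20.6, 15.4 and 22.3 CPM in the KO libraries. All 3 KO libraries lay below all 3 WT libraries, and 14.5% of all genes tested showed that order. The group means were 46.4 ± 10.9 and 19.4 ± 3.62 CPM (SD, n = 3 each). Irf8 fell by 1.25 on the log2 scale (SE 0.26, 95% interval -1.79 to -0.71, edgeR adjusted p = 0.00324), to 0.419 of the WT level. It passed the threshold in all 16 alternative settings, with log2 fold changes of -1.44 to -1.09 and a highest adjusted p of 0.0414, in limma on log2(RPKM + 0.1).

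WT replicate 3, with the highest macrophage marker sum, had the lowest Irf8 of the WT libraries, and without it the log2 fold change of Irf8 was -1.44 (edgeR adjusted p = 0.00117). The macrophage sums of WT replicates 1 and 2, 225 and 117.4 CPM, were still above the 64.0 to 116.7 CPM of the KO libraries. The summed granulocyte markers were also lowest in WT replicate 3 among the WT libraries and lower still in every KO library. Singly, 4 of the 11 markers (Ngp, S100a8, Lcn2 and Chil3) showed all KO libraries below all WT libraries. The others, such as Camp, Ltf and S100a9, overlapped between the groups. Lymphoid markers summed to 29.4 to 45.7 CPM in WT and 21.5 to 28.0 CPM in KO. Most of this was Cd79b, the only lymphoid marker tested, whose groups overlapped. Cd79b had 25.6, 25.6 and 41.6 CPM in WT and 24.3, 25.9 and 21.4 CPM in KO (edgeR adjusted p = 0.433). The part of macrophages, granulocytes and lymphoid cells in the Irf8 result was not tested.

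Gfi1, a zinc finger repressor that restrains HSC proliferation and favours the neutrophil over the monocyte fate, had 84.2, 56.6 and 77.2 CPM in the WT libraries and 103, 125 and 107 CPM in the KO libraries. All KO libraries were above all WT libraries, an order that 15.7% of all genes tested showed. The group means were 72.7 ± 14.3 and 112 ± 11.5 CPM (SD, n = 3 each), and Gfi1 rose by 0.62 on the log2 scale (SE 0.17, 95% interval 0.27 to 0.97, edgeR adjusted p = 0.0199), a 1.54-fold difference. The call depended on single libraries. With WT replicate 2, KO replicate 2 or KO replicate 3 left out, the adjusted p in edgeR was 0.0910, 0.129 and 0.0554 in turn, and it was 0.0683 when transcript length and GC content were offset. The log2 fold change stayed between 0.47 and 0.74 in all 16 alternative settings. The summed granulocyte markers moved the other way, lower in every KO library than in any WT library, although only 4 of the 11 markers showed that order singly and 1 of 10 tested, Chil3, was called. Their part in the Gfi1 result was not tested.

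**Figure D1:**
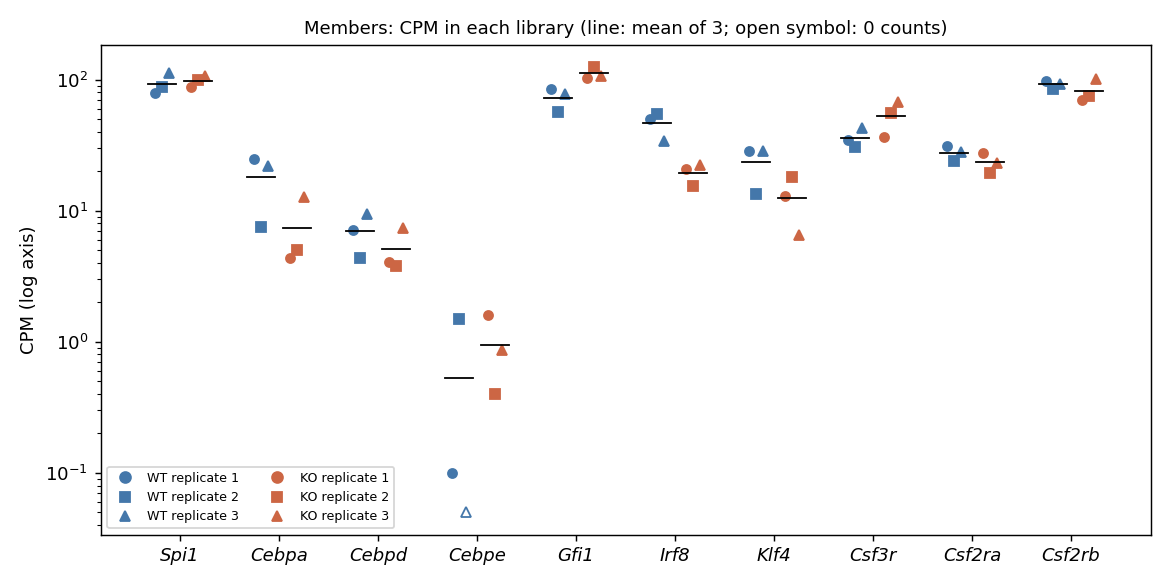
CPM of each of the 10 genes in each library on a log axis, WT in blue and KO in orange, with the mean of 3 libraries as a line. Gfi1 and Irf8 are the genes whose WT and KO points do not overlap, and the open symbol marks Cebpe at 0 counts in WT replicate 3, drawn at the bottom of the axis.

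Gfi1 and Irf8 are known antagonists in the choice between neutrophils and monocytes, so their counts were also set against each other within each library, which needs no scaling between libraries. The ratio of Gfi1 to Irf8 counts was 1.68, 1.03 and 2.27 in the WT libraries and 5.02, 8.11 and 4.78 in the KO libraries. The lowest KO ratio was above the highest WT ratio. On the log2 scale it was 0.66 ± 0.57 in WT and 2.54 ± 0.42 in KO (SD, n = 3 each), a difference of 1.88 or a 3.68-fold higher ratio in KO. The exact two-sided permutation p was 0.1, the smallest that 3 libraries against 3 allow, and 0.4 after Benjamini-Hochberg adjustment over the 4 pairs of genes compared. Since both genes were singled out by the same 6 libraries, this ratio restates their levels and adds no independent evidence.

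**Figure D2:**
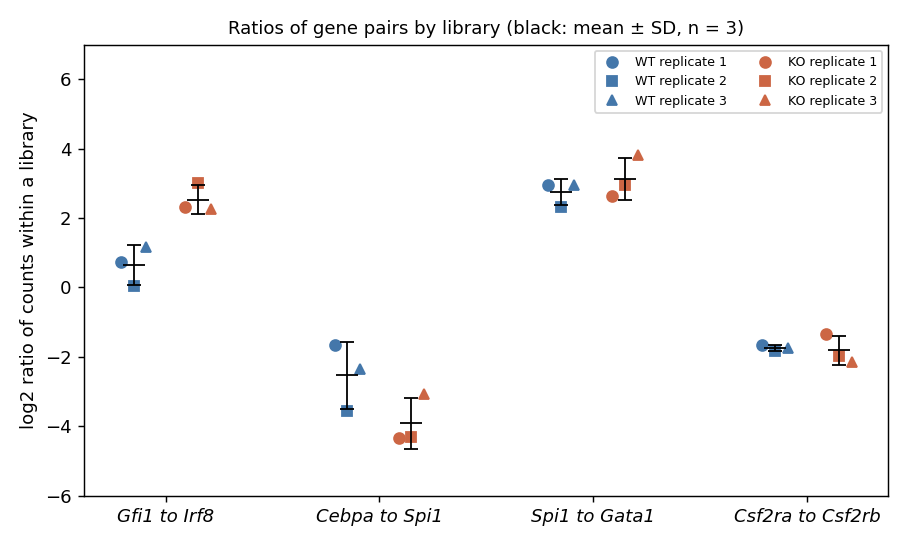
Log2 ratio of the counts of 2 genes within each library for 4 pairs, with the mean and SD of 3 libraries in black. Only for Gfi1 to Irf8, of these 4 pairs, do the WT points (0.04 to 1.18) and the KO points (2.26 to 3.02) not overlap.

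Spi1, the ETS factor gene that all myeloid and early lymphoid development requires, was the member with the highest level after scaling for gene length. It had 78.4, 88.2 and 112 CPM in the WT libraries and 88.1, 99.9 and 106 CPM in the KO libraries, with the KO values inside the WT range. The log2 fold change was 0.08 (SE 0.16, edgeR adjusted p = 0.831). Its 95% interval of -0.26 to 0.42 leaves room for a small change in either direction, so an equal level was not shown. Against Gata1, the erythroid factor gene that PU.1 opposes, the Spi1 count was 7.82, 4.98 and 7.79 times as high in WT and 6.20, 7.73 and 14.02 times as high in KO. These ratios overlapped (exact permutation p = 0.6, adjusted p = 0.8 over 4 pairs). Of the 7 erythroid markers tested, Alas2, Klf1 and Slc4a1 were lower in KO. Epor pointed the other way without passing (log2 fold change 0.67, edgeR adjusted p = 0.427). The part of erythroid cells in this ratio was not tested. Gata1, also among the 7, averaged 14.04 ± 3.85 and 11.6 ± 3.52 CPM in the groups (SD, n = 3 each). It was not called (edgeR adjusted p = 0.731).

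Cebpa, whose product drives progenitors into the granulocyte and monocyte path, was the most uneven of the members well above the detection limit. It had 24.7, 7.45 and 22.0 CPM in the WT libraries and 4.33, 4.99 and 12.7 CPM in the KO libraries. WT replicate 2 lay within the KO range, so the groups overlapped. The log2 fold change was -1.30 (SE 0.50, 95% interval -2.35 to -0.25, edgeR adjusted p = 0.103), which did not pass. It passed without WT replicate 2 (-1.67, adjusted p = 0.0268), without KO replicate 3 (-1.95, adjusted p = 0.0448) and with no low-count filter (adjusted p = 0.0309), while its adjusted p reached 0.338 without WT replicate 1. The Cebpa to Spi1 count ratio was 0.315, 0.0845 and 0.196 in WT and 0.0491, 0.05 and 0.120 in KO, with overlap (exact permutation p = 0.2, adjusted p = 0.4 over 4 pairs).

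The other C/EBP genes among the 10 were low. Cebpd, an early-response C/EBP gene, had 7.12, 4.38 and 9.48 CPM in WT and 4.04, 3.79 and 7.41 CPM in KO, and its log2 fold change of -0.46 had an SE of 0.61 (edgeR adjusted p = 0.701). Cebpe, needed for the secondary granules of maturing neutrophils, had 1, 16 and 0 counts in the WT libraries and 22, 6 and 11 counts in the KO libraries. In these libraries 3 counts amount to 0.200 to 0.301 CPM, so Cebpe was near the detection limit, and its log2 fold change of 0.84 (95% interval -2.64 to 4.32) was not detectable as a difference at this depth. It ranged from 0.25 to 4.10 when single libraries were left out.

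Outside the 10 genes, the family members Cebpb and Cebpg stood higher in KO. Cebpg, which pairs with ATF4 and with other C/EBP proteins, had 53.1, 51.9 and 40.2 CPM in WT and 71.5, 75.4 and 85.3 CPM in KO, and rose by 0.68 (SE 0.18, edgeR adjusted p = 0.0187). Its adjusted p became 0.0716, 0.0640 and 0.102 when WT replicate 3, KO replicate 2 and KO replicate 3 were left out in turn. Cebpb, the C/EBP gene of emergency granulopoiesis, had 33.3, 30.4 and 41.3 CPM in WT and 50.4, 50.4 and 64.0 CPM in KO. Its log2 fold change of 0.65 (SE 0.21) just missed the threshold (edgeR adjusted p = 0.0518), and it passed with DESeq2 (adjusted p = 0.0367). Whether the C/EBP genes differ from each other in their response was not tested.

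Klf4, a Kruppel-like factor gene that monocyte differentiation uses, had 28.6, 13.3 and 28.4 CPM in the WT libraries and 12.8, 18.04 and 6.47 CPM in the KO libraries. Its log2 fold change of -0.91 (SE 0.39, 95% interval -1.73 to -0.09) did not pass (edgeR adjusted p = 0.148), nor did it in any of the 16 alternative settings. WT replicate 2 had the lowest Cebpa, Cebpd and Klf4 of the WT libraries. The same library had the lowest macrophage marker sum of the WT libraries (117 CPM) and their lowest Csf1r, which is part of that sum. The part of macrophages in the levels of these 3 genes was not tested.

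**Figure D3:**
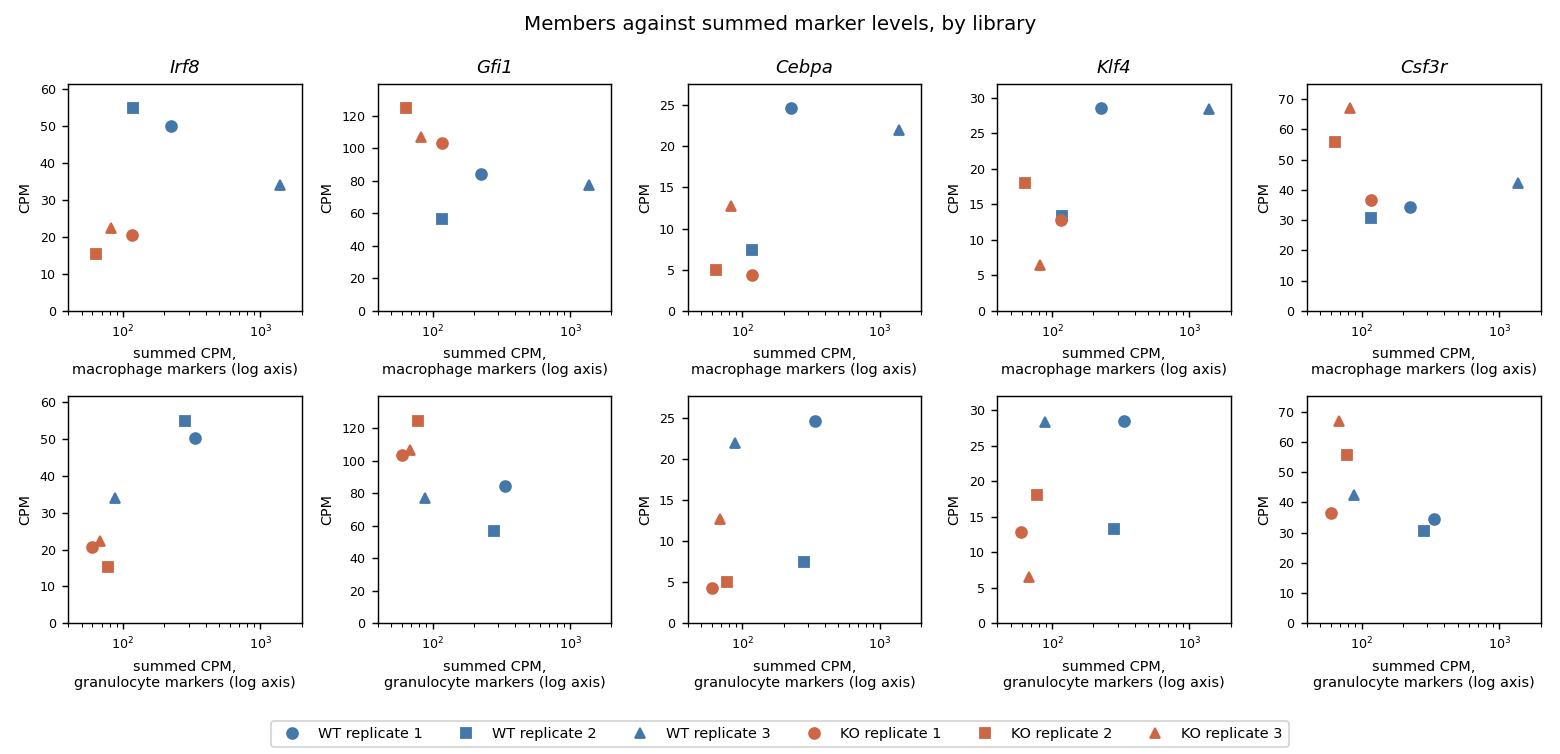
CPM of Irf8, Gfi1, Cebpa, Klf4 and Csf3r in each library (vertical axes) against the summed CPM of macrophage markers (upper row) and granulocyte markers (lower row) on log axes. WT replicate 3, at 1379 CPM of macrophage markers, has the lowest Irf8 of the WT libraries, and all KO libraries lie at 59.9 to 77.8 CPM of granulocyte markers.

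Among the receptors, Csf3r, the G-CSF receptor gene, had 34.4, 30.5 and 42.4 CPM in the WT libraries and 36.6, 55.7 and 67.0 CPM in the KO libraries. KO replicate 1 lay inside the WT range and the other KO libraries lay above it. The group means were 35.8 ± 6.06 and 53.1 ± 15.4 CPM (SD, n = 3 each), with a log2 fold change of 0.57 (SE 0.24, 95% interval 0.08 to 1.06) that did not pass (edgeR adjusted p = 0.130). Without KO replicate 1 it was 0.78 and passed (adjusted p = 0.0440), and without KO replicate 3 it was 0.37 (adjusted p = 0.477).

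The subunits of the GM-CSF receptor differed less. Csf2ra, the chain that binds GM-CSF, had 31.1, 23.8 and 27.8 CPM in WT and 27.5, 19.2 and 23.1 CPM in KO (log2 fold change -0.24, SE 0.27, 95% interval -0.81 to 0.32, edgeR adjusted p = 0.640). Csf2rb, the signalling chain shared with the IL-3 and IL-5 receptors, had 98.2, 85.0 and 92.8 CPM in WT and 69.5, 75.4 and 102 CPM in KO (log2 fold change -0.16, SE 0.17, 95% interval -0.52 to 0.19, edgeR adjusted p = 0.605). The groups overlapped for both chains. The Csf2ra to Csf2rb count ratio was 0.316, 0.280 and 0.299 in WT and 0.396, 0.255 and 0.228 in KO, so the KO ratios lay on both sides of the WT ratios (exact permutation p = 0.9).

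Csf2rb has a near-identical neighbour in the mouse, Csf2rb2, which serves IL-3 alone. Of the 50-base stretches of the longest Csf2rb transcript in GENCODE M21 (4900 bases), 18.4% also occur in Csf2rb2, so reads there can be assigned to either gene, and the sources used here do not give how the authors counted them. Csf2rb2 had 18.9, 24.95 and 29.1 CPM in WT and 10.7, 18.7 and 17.6 CPM in KO (log2 fold change -0.64, SE 0.32, edgeR adjusted p = 0.227). Counted as 1 gene, the pair had 117, 110 and 122 CPM in WT and 80.3, 94.1 and 119 CPM in KO, a log2 fold change of -0.25 (SE 0.16, edgeR adjusted p = 0.346). Csf1r, the M-CSF receptor gene of monocytes and macrophages, is itself among the summed macrophage markers. It had 60.6, 26.8 and 203 CPM in WT and 6.56, 4.53 and 17.5 CPM in KO. Its log2 fold change of -3.36 (SE 1.09) did not pass in edgeR (adjusted p = 0.158) and did without WT replicate 3 (-2.20, adjusted p = 0.0130) and with DESeq2 (adjusted p = 0.00596).

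**Figure D4:**
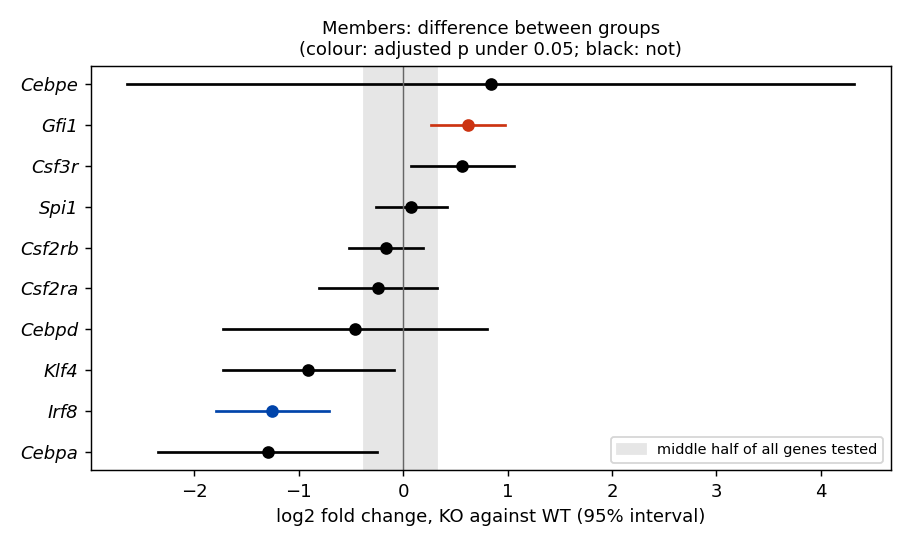
Log2 fold change of KO against WT for the 10 genes with 95% intervals from edgeR; the grey band spans the middle 2 quartiles of all genes tested, -0.38 to 0.33. Irf8 in blue (-1.25) and Gfi1 in red (0.62) passed the threshold, and the intervals of Cebpa, Klf4 and Csf3r exclude 0 without passing after adjustment.

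Levels of the 10 genes were ordered by the deposited RPKM, which is scaled for gene length. In WT the order by mean was Spi1 at 46.9 ± 8.70 RPKM, Gfi1 at 20.8 ± 4.05, Csf2rb at 14.4 ± 0.471, Irf8 at 11.99 ± 2.71, Csf2ra at 11.9 ± 1.17, Csf3r at 7.65 ± 1.60, Klf4 at 6.03 ± 2.11, Cebpa at 5.12 ± 2.66, Cebpd at 2.77 ± 1.28 and Cebpe at 0.235 ± 0.317 RPKM (SD, n = 3 each). Spi1, Gfi1 and the beta chain were separated from each other in every WT library, whereas Csf2rb, Irf8 and Csf2ra, and then Csf3r, Klf4, Cebpa and Cebpd, overlapped from neighbour to neighbour. In KO, Irf8 stood sixth of the 10 at 5.07 ± 1.13 RPKM, below Csf3r at 10.8 ± 2.77 and Csf2ra at 10.0 ± 2.06 RPKM and not overlapping with Csf2ra. Gfi1 came closer to Spi1 in KO, at 32.3 ± 3.93 against 43.8 ± 6.84 RPKM. The RPKM and count tables do not match exactly: for Spi1 the gene length that they imply together ran from 1904 to 3040 bases between libraries, and 180 genes without any count had a mean RPKM of at least 0.5.

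The profiles most like those of the called members were sought among all genes tested, by the root mean square difference of centred log2 CPM over the 6 libraries. For Gfi1 these were Ifrd2 (0.0689) and Brf1 (0.0733), which did not pass the threshold themselves (edgeR adjusted p = 0.167 and 0.0896). For Irf8 they were Lss, the lanosterol synthase gene of sterol synthesis, at 0.130 and Serpina3g, a serine protease inhibitor gene, at 0.149. Lss had a log2 fold change of -1.43 and Serpina3g of -1.33 (edgeR adjusted p = 0.0229 and 6.90e-05).

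The myeloid network around these genes was read from 4 lists, in which 20 of 93 genes tested passed (21.5%), 2 higher and 18 lower in KO. In comparison, 11.4% of all genes tested passed, 6.41% higher and 4.99% lower in KO. The median log2 fold change was -0.45 over the 4 lists, -0.20 over the 10 members and -0.02 over all genes tested. Leaving out single libraries gave 14 to 25 called genes of the lists, with 25 without WT replicate 2 and 25 without WT replicate 3.

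Among 25 other myeloid transcription factor genes, 23 were tested, and 1 was higher and 6 lower in KO, with a median of -0.81. The share called was 30.4%, against 11.4% of all genes tested. Klf6, a Kruppel-like factor gene active in macrophages, had 145, 125 and 173 CPM in WT and 68.1, 75.9 and 67.4 CPM in KO and fell by 1.07 (edgeR adjusted p = 9.24e-05). Zeb2, a repressor used in monocyte and dendritic cell development, had 209, 175 and 226 CPM in WT and 116, 110 and 104 CPM in KO and fell by 0.89 (adjusted p = 0.000126). Id2, an inhibitor of E proteins that dendritic and innate lymphoid cells use, fell furthest of the 7 called, from 47.7, 24.4 and 29.0 CPM to 3.82, 8.06 and 11.04 CPM (log2 fold change -2.14, adjusted p = 0.000930). Klf2, a quiescence and trafficking factor of leukocytes, went from 44.4 ± 6.64 to 20.2 ± 6.00 CPM (SD, n = 3 each, adjusted p = 0.00816). For each of these 4 genes all KO libraries lay below all WT libraries, as for 14.5% of all genes tested. Each was called in all 16 alternative settings. The higher gene was Cebpg. The macrophage and granulocyte marker sums given above also stood lower or level in KO. All the summed granulocyte markers but Retnlg are themselves on the list of neutrophil and monocyte targets, so that sum is not independent of that list. The part of macrophages and granulocytes in the counts of both lists was not tested.

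Of 24 other cytokine receptor genes, 21 were tested, with 0 higher and 3 lower and a median of -0.36. The share called was 14.3%, near the 11.4% of all genes tested. Kit, the stem cell factor receptor gene, fell by 0.38 from 751 ± 87.5 to 576 ± 45.3 CPM. Flt3, the FLT3 ligand receptor gene of multipotent progenitors, fell by 0.61 from 105 ± 22.8 to 69.0 ± 11.8 CPM (SD, n = 3 each, edgeR adjusted p = 0.0212 for Kit and 0.0322 for Flt3). Leaving out WT replicate 1, KO replicate 2 or KO replicate 3 ended both of these calls, and leaving out WT replicate 3 also ended that of Kit. Kit is also among the stem cell markers summed above.

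In the signalling list of 20 genes below these receptors, 1 was higher and 1 lower, with a median of 0.10. The share called was 10%, near the 11.4% of all genes tested. Pim1, a survival kinase gene induced by STAT5, rose by 0.78 (SE 0.14, edgeR adjusted p = 0.000939), from 81.8, 82.8 and 89.6 CPM in WT to 132, 142 and 164 CPM in KO. All KO libraries were above all WT libraries, as for 15.7% of all genes tested, and Pim1 was called in all 16 alternative settings.

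The list of neutrophil and monocyte target genes had 29 genes tested, 0 higher and 8 lower, with a median of -1.05. The share called was 27.6%, against 11.4% of all genes tested. Leaving out single libraries gave 6 to 13 lower, 6 without KO replicate 1 and 13 without WT replicate 3. Ccr2, the chemokine receptor gene of monocytes and their progenitors, had 29.9, 27.0 and 31.5 CPM in WT and 1.51, 3.33 and 3.55 CPM in KO and fell by 3.39 (SE 0.40, edgeR adjusted p = 1.09e-05). The macrophage marker sum ran from 117.4 to 1379 CPM over the same WT libraries, and the part of macrophages in the Ccr2 result was not tested. Cst3, the cystatin C gene, fell by 1.14 from 264 ± 4.29 to 120 ± 24.8 CPM (adjusted p = 1.37e-05). The lysozyme genes Lyz2 and Lyz1, close copies between which reads may be split, fell by 1.43 and 1.46 (adjusted p = 5.82e-05 and 0.00324 in edgeR). Chil3, a chitinase-like gene of monocytes and early neutrophils, had 84, 62 and 51 counts in WT and 0 in every KO library, at least 81.0-fold lower when 3 counts are allowed over the KO group.

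**Figure D5:**
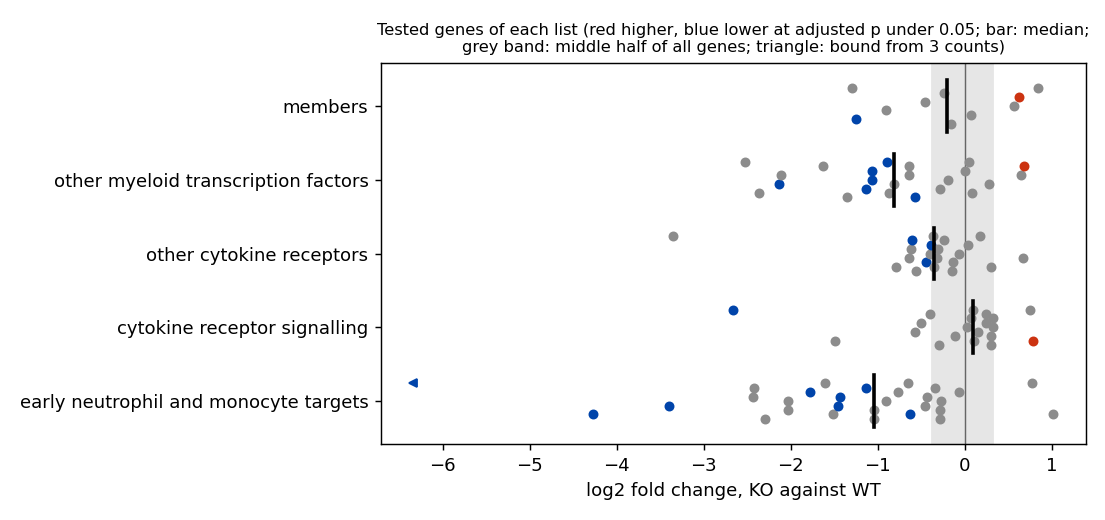
Log2 fold change of KO against WT for every gene tested of the 10 members and the 4 surrounding lists; black bars are list medians and the triangle is Chil3 at its bound of -6.34. The list medians run from -1.05 for neutrophil and monocyte targets to 0.10 for receptor signalling.

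Gene overlaps limit some of these values. In GENCODE M21, Cebpd overlaps Spidr on the opposite strand, and without a stated strand setting their reads cannot be told apart. Spidr had 427 to 476 counts in WT and 732 to 837 counts in KO, above the 47 to 123 and 56 to 94 counts of Cebpd. Gfi1 and Cebpa overlap transcripts of the opposite strand, and Irf8 and Csf2rb others of their own strand, none of which has a row in the count table.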

How the data were processed

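Read counts and RPKM values (reads scaled for gene length and library size) of 23951 genes were deposited by the authors as 1 table each with 1 column per library. TopHat, Cufflinks and the mm9 build are named in the submitters' processing notes. The sources used here do not give the read counter, annotation, strand setting or versions. A strand-marking low-input kit was used on 1 to 10 ng of RNA, per the labels' protocols.

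WT and KO counts were compared by the robust quasi-likelihood test of edgeR 4.0.16 (R 4.3.3), after filterByExpr and TMM scaling and with no covariate, adjusted by Benjamini-Hochberg over 12204 genes. CPM used the TMM-scaled library sizes. SEs were derived from the log2 fold change and its F statistic. Replicates differed beyond counting noise in every pair (chi-square 22.4 to 44.8 per degree of freedom). The 95% intervals of fold changes include the spread between libraries, and the limits set by 3 counts cover counting error only. Named genes were the 10 members, their relatives and ratio partners, up to 5 per list with the smallest p among those called, and the 2 nearest profiles of each called member. Runx1, Irf5, Mpo, Fcer1g and Ly86 also passed and were outside that rule. A called gene in each of 2 lists is counted but not reported here by name. The members and lists were chosen with earlier results of these data known. Alternatives were RLE scaling, DESeq2 1.42.0, limma 3.58.1 (voom, and log2(RPKM + 1) or log2(RPKM + 0.1)), 2 filters, each library left out and a replicate block. Length and GC offsets and the summed Csf2rb genes were added after the data were seen. Globin counts were 0 in all libraries beside RPKM values above 0 for most and were not used.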

Additional observations from a re-analysis of the deposited data

How the results depend on the processing

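Over all genes tested, 1391 differed (782 higher, 609 lower). With limma on log2(RPKM + 1) there were 583 (348 higher, 235 lower), and with log2(RPKM + 0.1) 560 (337 and 223). Leaving out 1 library gave 712 to 1263 genes, 448 to 717 higher and 264 to 546 lower, with 712 without KO replicate 2, 833 without KO replicate 3 and 383 lower without WT replicate 1. Of the 10 members 2 passed. Only Irf8 passed with either RPKM fit, with length and GC offsets and without KO replicate 2, 1 gene each, and leaving out single libraries gave 1 to 3. The surrounding lists had 20 genes called, against 12 and 11 with the RPKM fits at pseudocounts 1 and 0.1. Gfi1 had an adjusted p of 0.0844 and 0.0854 in those fits (limma).

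The log2 ratio of Csf2ra to Csf2rb differed by -0.07 and changed sign when single KO libraries were left out (-0.31 to 0.09), reaching 0.01 with KO replicate 2 left out and 0.093 with KO replicate 3 left out. The ratio difference of Gfi1 to Irf8 stayed between 1.57 and 2.14. The labels do not say what same-numbered WT and KO libraries share. The deviations of such libraries from their group means correlated at 0.0224, 0.0117 and -0.00343, which does not decide whether they were paired. With the replicate block 1341 genes were called, the 2 members among them, Irf8 with adjusted p = 0.00655 and Gfi1 with 0.0271 (edgeR). Csf1r passed with the block as well (-3.13, edgeR adjusted p = 1.89e-07). The cause of these changes was not tested. Counts of Cebpe, 0 to 22 per library, limit what can be said of it.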
